A study of Homo sapiens with 6 samples.

Results

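GABA receptor genes were examined in OVCAR-3 ovarian cancer cells with and without a stable knockdown of COX-1. The genes GABRG1, GABRA2, GABRA4, GABRB1, GABRA3, GABRE, GABRP, GABRD and GABBR1 were named by symbol, and 7 of these 9 had a row among the 34811 genes of the count table. GABRB1 and GABRA3 were not analysed here. The established line OVCAR-3 comes from a human ovarian carcinoma. OV3/SCR cells carried a scrambled pRS shRNA plasmid and are wild-type for COX-1, while OV3/COX1KD cells carried a pRS shRNA plasmid against COX-1. Both lines were stably transfected derivatives of OVCAR-3 kept in RPMI-1640 with serum, and RNA was taken from 3 separately harvested populations of each. Each condition was represented by a single stable clone, so clone and knockdown cannot be told apart. The replicate spread is the spread between harvests of 1 clone. Words such as rose and fell below compare the clones and do not describe a change followed within 1 line.

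GABA is the main inhibitory transmitter of the adult brain, and several non-neural tissues and tumors also make its receptors. GABAA receptors are pentameric chloride channels of the cys-loop family, classically with alpha, beta and gamma subunits, and delta, epsilon or pi subunits can take the place of the gamma subunit. GABAB receptors are G protein-coupled receptors that need the GABBR1 and GABBR2 proteins together, and they act through inhibitory G proteins on adenylyl cyclase, calcium channels and inwardly rectifying potassium channels.

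The libraries held between 25291505 and 27391538 counted reads, and a floor of 3 counts corresponded to between 0.112 and 0.120 CPM (counts scaled by the TMM-adjusted library size, edgeR's correction for differences in library composition). PCR copies are not separate molecules, so this floor and the intervals given with ratios describe counting error alone. Pairs of libraries of 1 condition had correlations of log2 CPM over genes of 0.997 to 0.998, and pairs of different conditions 0.982 to 0.983. PTGS1, the gene of COX-1, had a mean of 25.6 CPM (SD 1.02, n = 3) in the control and 18.8 CPM (SD 0.637, n = 3) in the knockdown line, so the targeted mRNA differed in the direction of the labels. Of 10 markers of serous ovarian epithelium, 9 were above the floor and ESR1 was at 2 counts or fewer in every library. Their summed level lay between 4827 and 4860 CPM in OV3/SCR and between 6321 and 6500 CPM in OV3/COX1KD libraries. The markers did not move together. At an edgeR FDR under 0.01, 7 were higher in OV3/COX1KD cells and 2 lower (PAX8 and KRT7), against 25.8% and 22.1% of all tested genes. KRT8, the most abundant, had means of 1499 CPM in OV3/SCR and 2357 CPM in OV3/COX1KD cells, and PAX8 755 and 446 CPM. Of 10 neuronal markers 8 had a row, their summed level was between 23.9 and 27.0 CPM in OV3/SCR and between 22.0 and 23.7 CPM in OV3/COX1KD libraries, and STMN2 was at 0 in all libraries but 1. Most of this sum was DLG4, with means of 16.7 CPM in OV3/SCR and 15.9 CPM in OV3/COX1KD cells. Of 7 fibroblast and blood cell markers 5 had a row, with summed levels of 10.6 to 11.4 CPM in OV3/SCR and 6.19 to 7.33 CPM in OV3/COX1KD libraries. Most of these sums was COL1A1, with means of 10.1 CPM in OV3/SCR and 5.92 CPM in OV3/COX1KD cells. The part of these marker differences in the results below was not tested.

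GABRG1, GABRA2, GABRA4 and GABRB1 lie side by side on chromosome 4 of GRCh37, the build to which the reads were aligned. GABRG1 runs from 46037786 to 46126071, GABRA2 from 46245565 to 46477247 and GABRA4 from 46920917 to 46995598, all on the minus strand. The sequences before the canonical starts of GABRG1 and GABBR1 are shown because GABRG1 had the largest difference of the members and GABBR1 was the most abundant receptor gene per length. They are read 5′ to 3′ on the gene's strand from GRCh37, within the 250 bases before the start of the canonical GENCODE transcript. The GABBR1 window lies inside the full interval of that gene, which ends at 29601753, and holds no annotated exon. Capitals mark GC boxes (GGGCGG on either strand, where neighbouring matches may overlap).
GABRG1, chr4:46126072-46126321, minus strand: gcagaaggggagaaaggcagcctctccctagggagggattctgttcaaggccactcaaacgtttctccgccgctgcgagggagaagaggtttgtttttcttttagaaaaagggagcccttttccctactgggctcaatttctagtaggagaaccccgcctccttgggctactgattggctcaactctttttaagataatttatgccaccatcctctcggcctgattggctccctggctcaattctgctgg
GABBR1, chr6:29600961-29601210, minus strand: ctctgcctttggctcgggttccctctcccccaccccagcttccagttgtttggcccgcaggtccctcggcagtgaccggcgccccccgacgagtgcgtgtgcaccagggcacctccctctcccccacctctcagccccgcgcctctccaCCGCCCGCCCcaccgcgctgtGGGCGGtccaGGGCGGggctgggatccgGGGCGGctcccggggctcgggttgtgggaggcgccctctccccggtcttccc

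In these windows of 250 bases, GABRG1 had 51.2% G and C and 6 CpG dinucleotides, and GABBR1 had 74.8% and 22, against medians of 63.2% and 18 over 19874 protein-coding promoters. The window of GABRG1 held no GC box and that of GABBR1 held 5, while 59.1% of all promoters held at least 1. The cAMP response element TGACGTCA was found in 2.4% of all promoters and in neither of these windows. The same held for its core TGACG, found in 25.4% of all promoters, for the AP-1 motif TGANTCA, found in 4.69%, and for the TATA box TATAAA, found in 9.26%, all searched on both strands. The windows of GABRP, GABRB2 and GABBR2 were searched in the same way. That of GABRP held TGACG once and 1 GC box, that of GABBR2 held 4 GC boxes, and that of GABRB2 held none of these motifs. Of the 250 bases, 158 in the GABRB2 window and 34 in the GABRP window lie in annotated exons of the same gene. A window without a match says only that these letters are absent from it.

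GABRG1 encodes the gamma 1 subunit, and it was nearly absent from OV3/SCR cells, with 4, 2 and 2 reads in the 3 OV3/SCR libraries. The 3 OV3/COX1KD libraries held 85, 102 and 125 reads of GABRG1. Each OV3/COX1KD library was far above each OV3/SCR library, in which the reads were at or close to the floor. Its level was 0.101 ± 0.0421 CPM (SD, n = 3) in control cells and 4.04 ± 0.657 CPM (SD, n = 3) in OV3/COX1KD cells. The summed reads, 8 against 312, gave a ratio of 39.9 between the conditions, with a 95% counting interval from 20.0 to 93.2, and the log2 fold change fitted by edgeR was 5.25 (SE, the standard error, 0.302). No 50-base word of the GABRG1 transcripts occurs in a transcript of another gene. In bulk libraries such as these, more cells with the transcript and more transcript per cell cannot be told apart.

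GABRA2 encodes the alpha 2 subunit, and it differed in the opposite direction. It had 1852, 1738 and 1862 reads in the OV3/SCR replicates and 293, 344 and 337 in the OV3/COX1KD replicates, so every OV3/COX1KD library was below every OV3/SCR library by a wide margin. The level was 69.3 ± 2.66 CPM (SD, n = 3) in control cells and 12.7 ± 1.04 CPM (SD, n = 3) in OV3/COX1KD cells (log2 fold change -2.45, SE 0.0566). The OV3/COX1KD level was 18.3% of the control level. The lncRNA gene RP11-320H14.1 (ENSG00000260878) lies within the exons of GABRA2 on its strand and covers 3.95% of their length, and 4.16% of the 50-base words of GABRA2 transcripts occur in another gene.

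GABRA4 encodes the alpha 4 subunit and lies between GABRA2 and GABRB1. It had 0 reads in every OV3/SCR library and 0, 1 and 0 in the OV3/COX1KD libraries. Of the 3 neighbouring genes with values, GABRA2 and GABRG1 were thus detected and GABRA4 was not detectable at this depth.

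**Figure D1:**
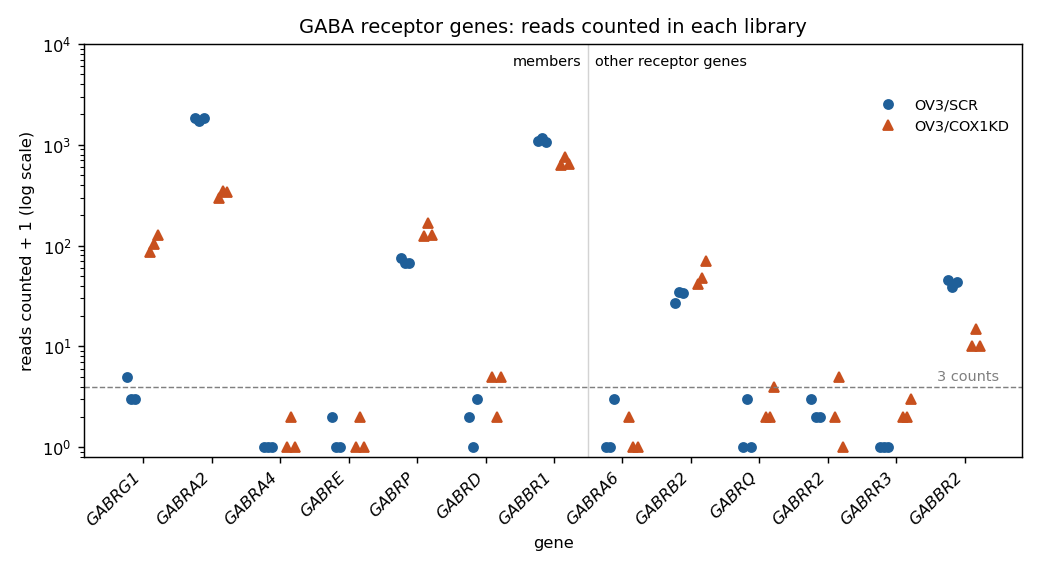
Reads counted in each library (vertical axis, reads plus 1, log scale) for the 7 GABA receptor genes described here and the 6 other receptor genes with values (horizontal axis), with circles for the 3 OV3/SCR and triangles for the 3 OV3/COX1KD libraries. GABRG1 has 2 to 4 reads against 85 to 125, GABRA2 has at least 1738 reads against at most 344, and 7 of the 13 genes have at most 4 reads in any library, near or under the dashed line at 3 counts.

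GABRP encodes the pi subunit, which is known mainly from reproductive tract and other epithelia. It had 74, 67 and 67 reads in OV3/SCR replicates and 123, 166 and 127 in OV3/COX1KD replicates. The conditions did not overlap, and OV3/COX1KD replicate 2 was the highest library. The level was 2.64 ± 0.113 CPM (SD, n = 3) in control cells and 5.42 ± 1.04 CPM (SD, n = 3) in OV3/COX1KD cells (log2 fold change 1.03, SE 0.146). The gene lies on chromosome 5 from 170190354 to 170241051 of GRCh37.

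GABRD and GABRE encode the delta and epsilon subunits, and both were at the limit of detection. GABRD had 1, 0 and 2 reads in OV3/SCR replicates and 4, 1 and 4 in OV3/COX1KD replicates. The ratio of its summed reads, 9 to 3, was 3.07 with a 95% counting interval from 0.765 to 17.6, so a difference was not detectable at this depth. GABRE had 1, 0 and 0 reads in OV3/SCR replicates and 0, 1 and 0 in OV3/COX1KD replicates, and no fold change is given. GABRE lies on the X chromosome from 151121596 to 151143152, and GABRD on chromosome 1 from 1950768 to 1962197.

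GABBR1, which encodes the ligand-binding subunit of the GABAB receptor, had 1095, 1161 and 1056 reads in OV3/SCR replicates and 624, 753 and 646 in OV3/COX1KD replicates. Its lowest OV3/SCR library was above its highest OV3/COX1KD library. The level was 42.1 ± 2.07 CPM (SD, n = 3) in control cells and 26.3 ± 3.20 CPM (SD, n = 3) in OV3/COX1KD cells (log2 fold change -0.68, SE 0.0656). The gene lies on chromosome 6 from 29523406 to 29601753, where a long GABBR1 transcript shares 8.54% of the exon length with UBD on the same strand and with the olfactory receptor gene OR2I1P on the opposite strand.

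The 9 genes were chosen by symbol with their counts and fold changes between OV3/COX1KD and OV3/SCR in view, so their values in this contrast are a description and are given without a test. Of the 7 with a row, 4 passed the filter on low counts (GABRG1, GABRA2, GABRP and GABBR1). GABRG1 passed it only through the OV3/COX1KD libraries. Of all 17309 tested genes 47.9% were called at an edgeR FDR under 0.01 (25.8% higher and 22.1% lower), and the 4 members were among them, 2 higher and 2 lower, from which nothing is read because this contrast was used to choose them. GABRA4, GABRE and GABRD did not pass the filter. The share of all tested genes whose libraries do not overlap between conditions is not given here. Nothing is therefore read from such separations, whether of the members or of other genes.

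Of the 12 remaining GABA receptor genes 6 had a row, and GABBR2 and GABRB2 passed the filter on low counts. GABBR2, the partner of GABBR1 that couples the receptor to G proteins, had 45, 38 and 43 reads in OV3/SCR replicates and 9, 14 and 9 in OV3/COX1KD replicates. Every OV3/COX1KD library was below every OV3/SCR library, and the log2 fold change was -1.93 (SE 0.266, edgeR FDR = 3.6e-06), from 1.60 ± 0.126 CPM (SD, n = 3) to 0.418 ± 0.122 CPM (SD, n = 3). GABRB2, which encodes the beta 2 subunit, had 26, 34 and 33 reads in OV3/SCR replicates and 41, 47 and 70 in OV3/COX1KD replicates (log2 fold change 0.79, SE 0.220, edgeR FDR = 0.00439). The conditions did not overlap for GABRB2, and OV3/COX1KD replicate 3 stood above the other two. The call for GABRB2 was lost by DESeq2 (adjusted p = 0.0130) and without any 1 of the OV3/SCR libraries, and its log2 fold change was 0.56 (edgeR FDR = 0.0489) without OV3/COX1KD replicate 3.

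The other 4 receptor genes were at or near the floor. GABRA6, of the alpha 6 subunit, had at most 2 reads in any library, and GABRQ, of the theta subunit, at most 3. GABRR2 and GABRR3 of the rho subunits had at most 4 and at most 2. Among the subunit classes with values, reads above the floor in all libraries of a condition were thus found for 1 alpha gene (GABRA2), 1 beta gene (GABRB2), 1 gamma gene (GABRG1, in OV3/COX1KD cells) and the pi gene (GABRP).

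To compare genes with each other, levels were expressed as CPM per kb of merged exons. In OV3/SCR cells GABBR1 was highest at 4.98 ± 0.245 CPM per kb (SD, n = 3), followed by GABRA2 at 4.10 ± 0.158, GABRP at 0.572 ± 0.0244, GABBR2 at 0.218 ± 0.0172, GABRB2 at 0.0691 ± 0.0106 and GABRG1 at 0.0150 ± 0.00623. No neighbours in that order had overlapping libraries. In OV3/COX1KD cells GABBR1 was again highest at 3.11 ± 0.378 CPM per kb (SD, n = 3), and GABRP followed at 1.17 ± 0.225. GABRA2 at 0.749 ± 0.0616 and GABRG1 at 0.598 ± 0.0972 overlapped in their libraries and were not separated, while GABRB2 at 0.119 ± 0.0303 and GABBR2 at 0.0569 ± 0.0166 were. With the longest transcript as the length, GABRP (1.52) and GABRA2 (1.49 CPM per kb) overlapped in OV3/COX1KD cells instead, and GABRA2 and GABRG1 were separated.

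The balance between subunit genes within a library differed accordingly. The level of GABRA2 per kb was 185, 348 and 372 times that of GABRG1 in the OV3/SCR libraries and 1.38, 1.35 and 1.08 times in the OV3/COX1KD libraries. In OV3/SCR cells this ratio rests on the 2 to 4 reads of GABRG1. It also depends on the length used. With merged exons its mean was 302 in OV3/SCR and 1.27 in OV3/COX1KD libraries, and with the longest transcript 598 and 2.52. GABBR1 exceeded GABBR2 per kb by 21.1, 26.5 and 21.3 times in the OV3/SCR libraries and by 60.2, 46.7 and 62.3 times in the OV3/COX1KD libraries. The OV3/COX1KD ratios rest on 9, 14 and 9 reads of GABBR2. With the longest transcript as the length, the mean ratios were 32.2 in OV3/SCR and 78.9 in OV3/COX1KD libraries. Both GABAB genes were lower in OV3/COX1KD cells, and the ratio between them was higher in each OV3/COX1KD library than in any OV3/SCR library.

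**Figure D2:**
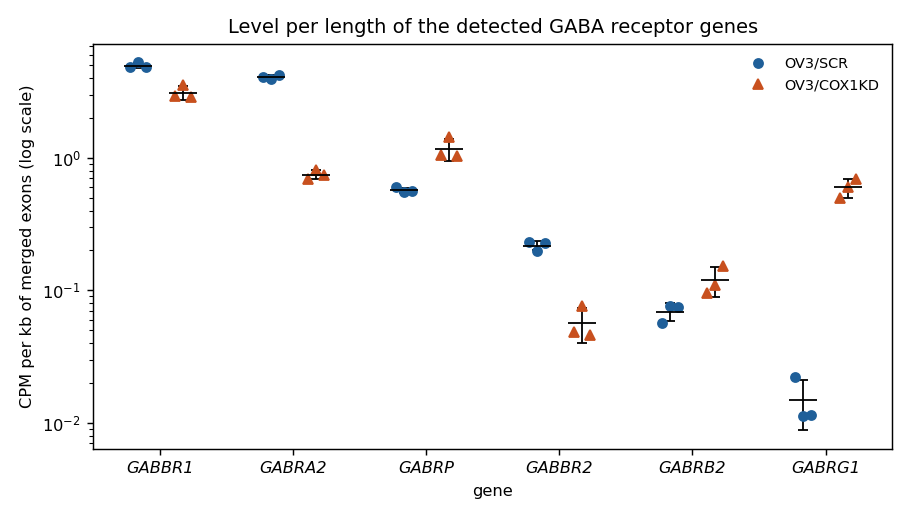
Level in CPM per kb of merged exons (vertical axis, log scale) of the 6 detected GABA receptor genes (horizontal axis) in OV3/SCR (circles) and OV3/COX1KD (triangles) libraries, with the mean and SD of 3 libraries in black. GABRG1 is lowest in OV3/SCR at 0.0150 and reaches 0.598 in OV3/COX1KD cells, where GABRA2 is at 0.749 by this length.

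Genes around the members were examined to see how the chromosomal surroundings behaved. A total of 34 genes with a row started within 2 Mb of the chromosome 4 cluster, 17 of them were tested, and 8 (47.1%) had an FDR under 0.01, 3 higher and 5 lower, against 47.9% of all tested genes. Their median log2 fold change was 0.02, and that of all tested genes was -0.01. COX7B2, a cytochrome c oxidase subunit gene between GABRA2 and GABRA4 that was picked out after its values were seen, was at 0.10 on the log2 scale (SE 0.0618, edgeR FDR = 0.194). The nearest tested genes outside the cluster were GNPDA2, a glucosamine-6-phosphate deaminase gene, with 0.10 (SE 0.0499, edgeR FDR = 0.0851), and COMMD8, with 0.02 (SE 0.0550, edgeR FDR = 0.828), which was -0.06 with total count scaling. RP11-320H14.1, the lncRNA gene inside GABRA2, had 14, 15 and 19 reads in the OV3/SCR and 2, 4 and 3 in the OV3/COX1KD libraries (log2 fold change -2.34, SE 0.431, edgeR FDR = 1.1e-04), and its reads cannot be told apart from those of GABRA2 without the counting rules. ATP10D, a phospholipid-transporting ATPase gene 59 kb beyond GABRB1, was at -0.78 on the log2 scale (SE 0.120, edgeR FDR = 1.4e-05).

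**Figure D3:**
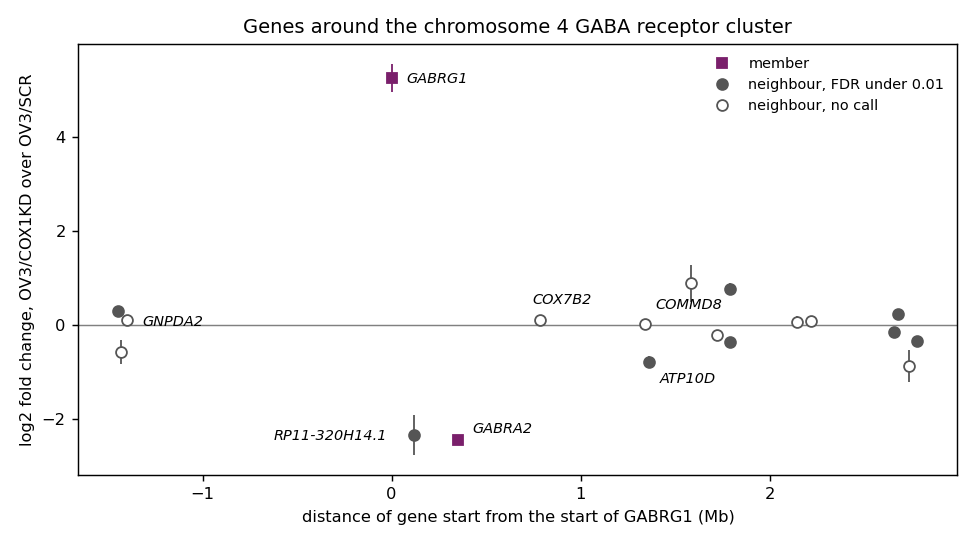
Log2 fold change of OV3/COX1KD over OV3/SCR with its SE (vertical axis) against the distance of each gene's start from the start of GABRG1 in Mb (horizontal axis), with squares for GABRG1 and GABRA2, filled circles for neighbours with an FDR under 0.01 and open circles for neighbours without a call. GABRG1 at 5.25 and GABRA2 at -2.45 are drawn with neighbours that lie between -0.87 and 0.88, except RP11-320H14.1 within GABRA2 at -2.34.

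Around GABRP 8 of 14 tested genes (57.1%) had a call, 3 higher and 5 lower, with a median of -0.36. The largest were NEURL1B, with 1.56 on the log2 scale (SE 0.0863, edgeR FDR = 7.5e-12), and the phosphatase gene DUSP1, with -1.47 (SE 0.136, edgeR FDR = 1.6e-08). The nearest tested genes, KCNMB1 and RANBP17, were at -0.76 (edgeR FDR = 0.0622) and -0.24 (edgeR FDR = 0.00909), and the call for RANBP17 was lost under 7 of 12 alternatives, among them leaving out control replicate 1 or 2 or knockdown replicate 1 or 3. Around GABBR1 28 of 74 tested genes (37.8%) had a call, 9 higher and 19 lower, with a median of -0.14, the nearest being TRIM27 at -0.17 (edgeR FDR = 8.9e-04) and HLA-G at -0.72 (edgeR FDR = 0.0706). ZNF323, a zinc finger gene, had a log2 fold change of -1.12 (edgeR FDR = 2.9e-13) and HLA-H one of -1.16 (edgeR FDR = 4.0e-04), where HLA-G and HLA-H belong to a multigene family, and how its members shared reads was not tested. Around GABRD 49 of 110 tested genes (44.5%) had a call, 15 higher and 34 lower. Around GABRE and GABRA3 23 of 37 (62.2%) had one, 15 higher and 8 lower.

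The genes that make, remove and transport GABA were examined as a list of 11, of which 7 had a row and 5 were tested. Of these, 4 (80.0%) rose in OV3/COX1KD cells, none fell and 1 did not pass the test, where 25.8% of all tested genes were called higher. The median log2 fold change was 0.62, against -0.01 over all tested genes. This list and the gene lists below were chosen with earlier results of these data known. Nothing is therefore read from their shares of calls or their medians. ALDH5A1, the succinic semialdehyde dehydrogenase that completes GABA breakdown, rose from 26.7 ± 0.575 to 47.1 ± 0.582 CPM (SD, n = 3 each, log2 fold change 0.82, SE 0.0452, edgeR FDR = 7.4e-12). ALDH9A1, an aldehyde dehydrogenase able to form GABA from aminobutyraldehyde, rose by 0.28 (edgeR FDR = 1.3e-05). The betaine and GABA transporter SLC6A12 was at 0.76 (edgeR FDR = 0.00321) and the GABA transaminase ABAT at 0.62 (edgeR FDR = 0.00678). Both were low, with 34 to 70 and 44 to 86 reads, and by DESeq2 their adjusted p were 0.0108 and 0.0188. Both calls were also lost without any 1 of the OV3/SCR replicates and without OV3/COX1KD replicate 2, and that of ABAT without OV3/COX1KD replicate 3, with edgeR FDR up to 0.0248 for SLC6A12 and 0.0390 for ABAT. GAD1, which makes GABA from glutamate, had between 5 and 12 reads and did not pass the filter.

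All 8 chloride transporter genes were tested, and 2 rose and 4 fell (75.0% called, against 47.9% of all tested genes). The KCC2 gene SLC12A5, whose product extrudes chloride from neurons, rose from 163, 145 and 160 to 239, 245 and 249 reads (log2 fold change 0.68, SE 0.0892, edgeR FDR = 2.0e-06). SLC12A7, the gene of the KCC4 cotransporter, fell from 84.8 ± 1.89 to 39.0 ± 0.964 CPM (SD, n = 3 each, log2 fold change -1.12, SE 0.0396, edgeR FDR = 8.5e-15). The anion exchanger gene SLC4A3 fell by 0.75 on the log2 scale (edgeR FDR = 3.5e-09), and SLC12A2, the NKCC1 gene that loads cells with chloride, fell by 0.49 (edgeR FDR = 5.7e-09).

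Of the 8 genes for GABAB effectors 7 had a row, 6 were tested, 4 (66.7%) rose and none fell, where 25.8% of all tested genes were called higher and 22.1% lower. KCNJ5, a subunit of the G protein-gated inwardly rectifying potassium channels, had 170, 179 and 213 reads in the OV3/SCR and 693, 661 and 727 in the OV3/COX1KD libraries (log2 fold change 1.92, SE 0.0769, edgeR FDR = 5.7e-14). The inhibitory G protein alpha genes GNAI2, GNAI1 and GNAI3 rose by 0.50, 0.36 and 0.19 on the log2 scale (edgeR FDR = 4.0e-11, 2.9e-07 and 2.7e-04), and with total count scaling GNAI3 was at 0.11 (edgeR FDR = 0.0179). KCNJ3 and KCNJ6 stayed at or below 16 reads in every library.

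Of 24 genes for anchoring, trafficking and auxiliary proteins 23 had a row and 18 were tested, with 4 higher, 4 lower and 10 without a call, so that 44.4% were called, near the 47.9% of all tested genes. KCTD12, an auxiliary subunit of the GABAB receptor, fell from 517 ± 10.4 to 257 ± 13.7 CPM (SD, n = 3 each, log2 fold change -1.01, SE 0.0350, edgeR FDR = 6.9e-15). PLCL2, of a GABAA receptor-binding phospholipase C-like protein, rose by 0.38 (edgeR FDR = 2.6e-04), and TRAK2, of a motor adaptor that binds GABAA receptors, fell by 0.34 (edgeR FDR = 3.4e-05). GABARAP at 0.38 (edgeR FDR = 0.00770) and HAP1 at -0.57 (edgeR FDR = 0.00822) lost their call under 6 and 5 of 12 alternatives. For GABARAP these included leaving out control replicate 1 or 3 or knockdown replicate 3 (edgeR FDR up to 0.0647), and for HAP1 control replicate 1 or 2 or knockdown replicate 1 or 3 (edgeR FDR up to 0.0593). GPHN, of the scaffold protein gephyrin, was at 0.10 (SE 0.0466, edgeR FDR = 0.0608), and was picked out after its values were seen.

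The list of 27 other genes of the cys-loop receptor family held those of the glycine, nicotinic and serotonin type 3 receptors and ZACN. Of these, 22 had a row and 8 were tested. CHRNA9, of a nicotinic subunit, rose by 0.50 (SE 0.0522, edgeR FDR = 9.5e-08), and the other 7 had no call, so that 1 of 8 was called, against 47.9% of all tested genes. Some of these 7 had few reads. CHRNB4, with 16 to 45 reads per library, was at 0.78 (edgeR FDR = 0.0111), and CHRNA7, with 4 to 17, at -1.13 (edgeR FDR = 0.0207). Both were picked out after their values were seen. At such counts a missing call does not show that a gene was unchanged. Total count scaling, which made 41.0% of all calls higher against 53.9% here, turned none of the calls of named genes in these lists to the opposite direction.

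**Figure D4:**
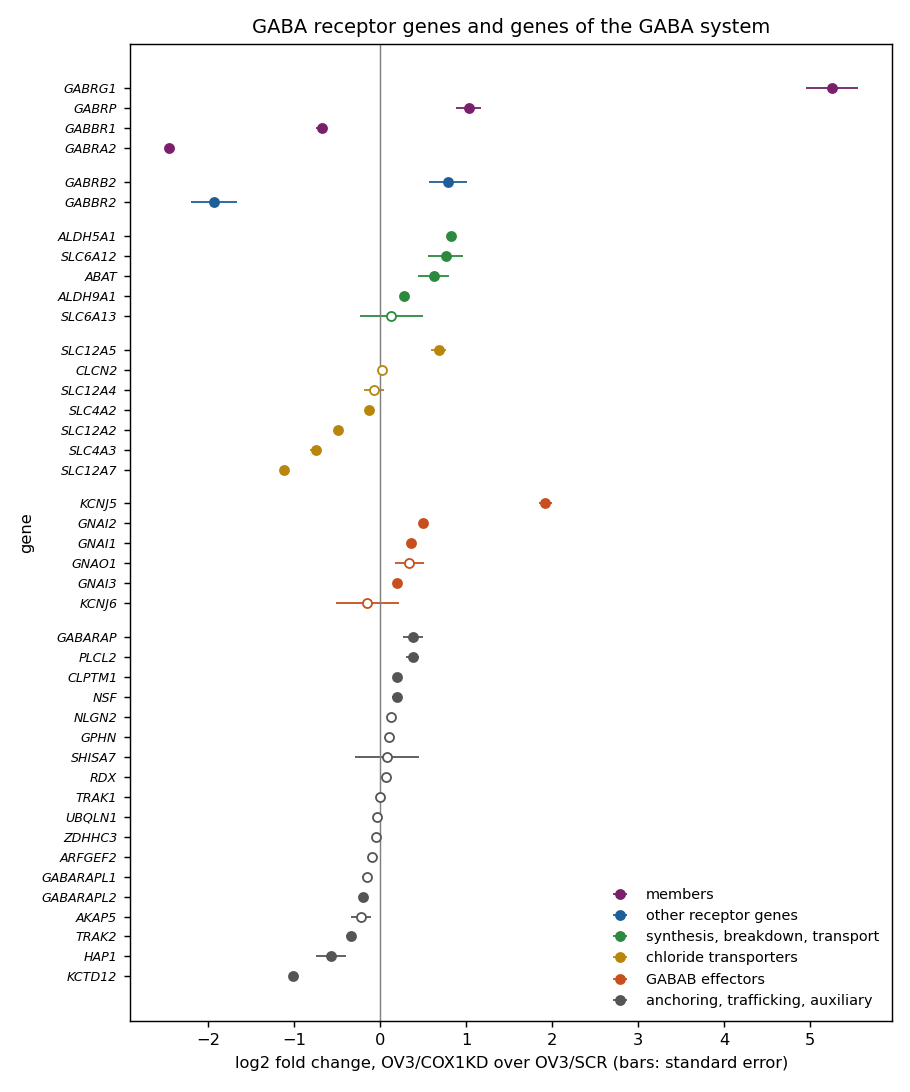
Log2 fold change of OV3/COX1KD over OV3/SCR (horizontal axis, bars are standard errors) of the tested GABA receptor genes and of the tested genes of the GABA system reported here (vertical axis), coloured by list, with filled points for an FDR under 0.01 and open points for no call. GABRG1 at 5.25 and KCNJ5 at 1.92 are the largest positive values, and GABRA2 at -2.45 and GABBR2 at -1.93 the largest negative ones.

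The profile of each abundant member over the 6 libraries was compared with 13008 other tested genes of at least 1 mean log2 CPM, by the root mean square difference of log2 CPM after centring each gene on its mean. Closest to GABRA2 were TLL2, a tolloid-type metalloproteinase gene, at a difference of 0.0712, and PREX2, a Rac exchange factor gene, at 0.0890, and 3 genes lay within 0.1. TLL2 had 936, 973 and 937 reads in the OV3/SCR and 155, 161 and 170 in the OV3/COX1KD libraries. Closest to GABRP were PCOLCE at 0.0655 and FOS, an AP-1 factor gene, at 0.0665, with 7 genes within 0.1. Closest to GABBR1 were MDM4, a p53 regulator gene, at 0.0315 and KIAA0907 at 0.0326, with 195 genes within 0.1. The 6 points of each profile share the split into 2 conditions.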

How the data were processed

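RNA of 3 OV3/SCR and 3 OV3/COX1KD harvests was sequenced on an Illumina HiSeq2500 after TruSeq library preparation. The authors aligned reads to hg19 (GRCh37) with TopHat2 and deposited raw counts per gene from HTSeq. The gene annotation and strand setting are not given in the sources used here. Groups and replicate numbers came from the sample titles, and columns were matched through the sample names.

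The test was edgeR 4.0.16 under R 4.3.3 (quasi-likelihood with TMM, filterByExpr, glmQLFit and glmQLFTest, condition as the only factor, Benjamini-Hochberg adjustment over 17309 of 34811 genes, FDR under 0.01). SE was derived from each log2 fold change and its F statistic. Members and gene lists were chosen with earlier results of these data known. Named genes were the members, the other receptor genes, up to 5 called genes per list, per locus the 2 largest called and the nearest tested neighbours, and the 2 most like profiles of 3 members. Positions and exon lengths came from GENCODE 44 lifted to GRCh37, which had an entry for 33556 genes, and GABRQ had none under its identifier. Every row of the table held at least 1 read. Alternatives were RLE and total count scaling, no filter, a minimum of 10 counts per library, DESeq2 1.42.0, the replicate number as a block and leaving out each library. Scripts were tested on simulated data. Same-numbered libraries deviated from their condition means with correlations across genes between 0.00220 and 0.0444, so the numbers were not taken to pair the libraries. Some genes and sequences are not reported here.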

Additional observations from a re-analysis of the deposited data

How the results depend on the processing

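Of 617 values of 52 named genes under the alternatives, 569 kept their direction and their side of the FDR threshold of 0.01, 43 lost a call, 2 gained one and 3 changed sign. The changes of sign were all of COMMD8, which had no call, at -0.06 with total count scaling, -0.0021 with at least 10 counts in every library and between -0.01 and 0.04 when 1 library was left out. GABRG1, GABRA2, GABRP and GABBR1 had log2 fold changes over the alternatives, given as a description, from 5.09 to 5.63, -2.53 to -2.40, 0.87 to 1.12 and -0.78 to -0.62, and GABRG1 was removed by the minimum of 10 counts. Among the other GABA receptor genes the 2 calls became 1 by DESeq2, where GABRB2 lost its call. They also became 1 with at least 10 counts in every library, a minimum that removed GABBR2 while GABRB2 kept its call. When a library was left out, 1 to 2 were called. The 4 calls among genes of GABA synthesis, breakdown and transport became 2 by DESeq2, and 2 to 4 when a library was left out, with 2 without any 1 of the OV3/SCR replicates or OV3/COX1KD replicate 2. The 8 calls among anchoring genes became 5 by DESeq2. The 1 call among other cys-loop receptor genes became 2 without a filter, with at least 10 counts in every library and with the replicate block, and was 1 to 2 when a library was left out. With the replicate number as a block 8233 genes had a call against 8293, and of the calls in named genes RANBP17 was lost (FDR = 0.0108). Total count scaling gave 3466 higher and 4978 lower genes against 4473 and 3820, and moved the median log2 fold change by -0.078. The causes of these shifts were not tested. The single clone per condition and the 3 harvests limit all values, and below about 10 reads per library, as for GABRD, only large differences could have been detected.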
